A study of Danio rerio with 4 samples.

Results

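The genes p4ha1b and plod1a encode zebrafish enzymes that hydroxylate collagen, and Hif-1α ChIP-seq peaks around them were examined in 4-dpf embryos. Peaks were taken from both deposited peak lists when any part of them lay within 50 kb of the region that had been chosen for ChIP-qPCR at each gene, namely chr17:19997287-19997387 for p4ha1b and chr8:50009868-50009967 for plod1a (Zv9). Of the 6457 peaks in the 2 lists, 4 met this rule. All 4 came from the vhl list of 5177 peaks, 1 at p4ha1b and 3 at plod1a, and 0 came from the wild-type list of 1280 peaks.

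The series held 4 libraries, 1 of each kind, from embryos of a TL/LWT mix. Wild-type embryos were compared with von Hippel Lindau mutants, which were homozygous for the vhl hu2117 allele and carried the phd3:gfp i144 reporter, a transgene whose fluorescence follows the hypoxia response and by which the mutants were sorted. Whether the wild-type embryos carried the reporter is not given in the sources used here. Both genotypes were incubated at 28 °C, de-yolked and fixed with formaldehyde, and chromatin of many pooled whole embryos was precipitated with a custom antibody to Hif-1α or, for the input libraries, sequenced with no antibody. With 1 ChIP library per genotype no test between genotypes was possible, all embryonic tissues were mixed, and the intervals given below are 95% intervals that cover counting error only.

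Hif-1α is the oxygen-regulated subunit of the hypoxia-inducible factor. In the presence of oxygen, prolyl hydroxylase domain enzymes hydroxylate it, Vhl recognises the hydroxylated form and the protein is degraded, so that loss of Vhl stabilises Hif-1α at normal oxygen. The factor binds the hypoxia response element, whose core is RCGTG, that is ACGTG or GCGTG. In mammals P4HA1 is the catalytic alpha subunit of collagen prolyl 4-hydroxylase, which works in a tetramer with protein disulfide isomerase (P4HB) in the endoplasmic reticulum. Its product, hydroxyproline, stabilises the collagen triple helix. PLOD1 is a lysyl hydroxylase of the same compartment, and the hydroxylysine it makes is the site of collagen glycosylation and of stable cross-links between collagen molecules. Both are iron- and 2-oxoglutarate-dependent dioxygenases, as are the enzymes that hydroxylate Hif-1α itself, and both genes are known hypoxia-induced genes in mammalian cells.

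The ChIP-qPCR primers are shown because they identify the sites that define the 2 loci. They were designed by the study on Zv9, are written 5′ to 3′, and are all in lower case because none of them holds the RCGTG core on either strand.
p4ha1b forward: ggttccatgagtttgggaga
p4ha1b reverse: tgcagctggactttatctgg
plod1a forward: tccagatgtgcacggagtt
plod1a reverse: tggctacagtgagcaccaga
The core was present in 3 of the 40 primers of all 20 such regions (7.5%). The GC content of the primers was 50% for both p4ha1b primers, and 52.6% and 55.0% for those of plod1a. Each region was centred on a peak summit, with the summit 1.0 bp below the middle of the p4ha1b region and 1.5 bp below that of plod1a, and all 18 other regions had the same arrangement within 1.5 bp. That a peak lay on each region was therefore a consequence of how the regions were made, and is not a result.

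In the RefSeq gene order of the GRCz12tu assembly, which was used for names and neighbours only, p4ha1b is on chromosome 17 between the protein-coding genes actn2b (an alpha-actinin) and si:ch211-248a14.8. There, plod1a is on chromosome 8 between si:dkeyp-104h9.5 and mfn2, which encodes mitofusin 2, a protein of mitochondrial fusion. The positions of the peaks relative to exons, introns and transcription start sites were not analysed here.

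At p4ha1b a single strong peak stood alone. It spanned chr17:19995847-19997631, 1785 bp, with its summit at 19997336, and held 643 tags (594 to 695), a tag being 1 uniquely aligned read kept after removal of duplicates. Its fold enrichment over the local background was 301, its score (the peak caller's p-value as −log10, multiplied by 10) was 3100, and its FDR was 0%. That score was the highest in the vhl list and was shared by 8 peaks, so it does not separate them. Expressed per unit of depth and length, the tags of the p4ha1b peak were 39.8 per 1000000 tags kept and 360 tags per kb (333 to 389). The nearest other vhl summit was 120.337 kb away.

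The plod1a region held a main peak and 2 weaker ones. The main peak, chr8:50009344-50010284, was 941 bp long with its summit at 50009916, and held 341 tags (306 to 379) at a fold enrichment of 207, a score of 1686 and an FDR of 0%. That was 21.1 per 1000000 tags kept and 362 tags per kb (325 to 403). A second peak lay beside it with a gap of only 20 bp, at chr8:50008803-50009323, 521 bp long, with 100 tags (81.4 to 122), a fold enrichment of 57.6, a score of 319 and an FDR of 0%. Its summit at 50009090 was 826 bp from the main one. The third peak, chr8:50028280-50028803, was 524 bp long with its summit 18.641 kb from the main summit, and held 73 tags (57.2 to 91.8) at a fold enrichment of 39.2, a score of 167 and an FDR of 0.2%. In the plot of tags by distance the plod1a peaks thus appear as a close pair and 1 distant peak.

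**Figure D1:**
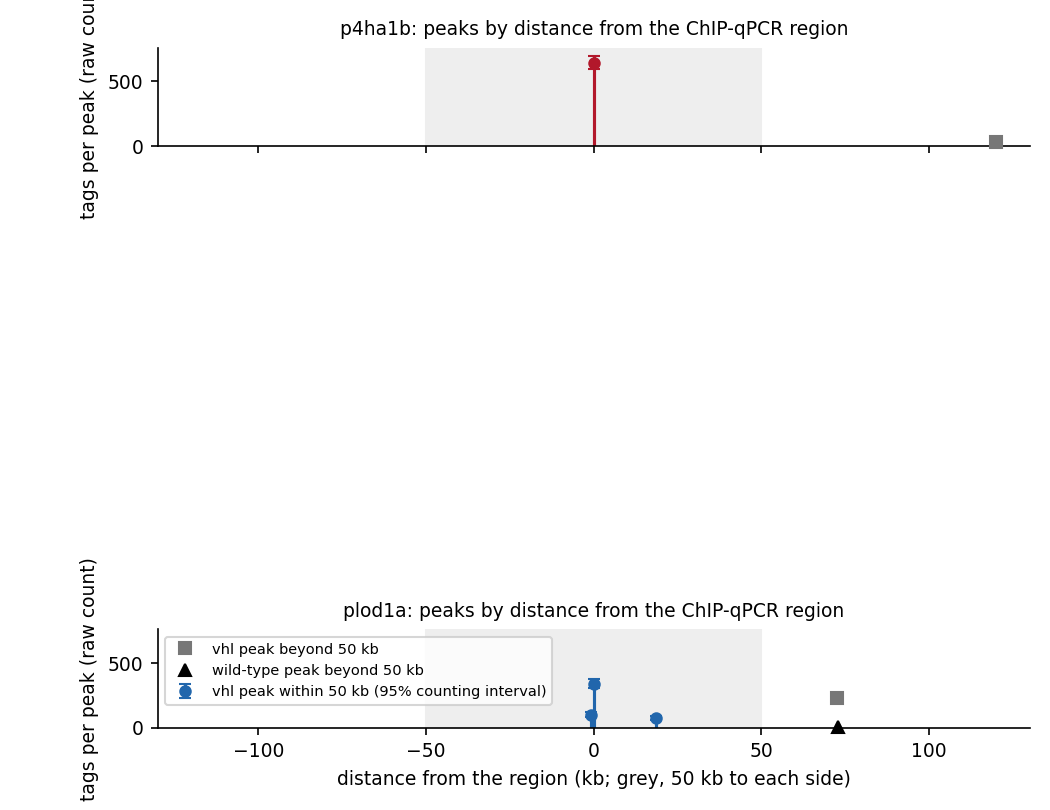
Tags per peak (raw counts) by distance in kb from the ChIP-qPCR region of p4ha1b (upper panel, red) and plod1a (lower panel, blue), with 95% Poisson intervals as error bars; the grey band marks 50 kb to each side, squares are vhl peaks and the triangle a wild-type peak beyond it. Inside the band p4ha1b has 1 vhl peak of 643 tags and plod1a has 3, of 341, 100 and 73 tags, with 0 wild-type peaks at either gene.

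With the 4 peaks in order of tags, the interval of each ratio between neighbours lay above equal counts, by the smallest margin between the 2 flanking plod1a peaks. The peaks were ordered by these same counts, and the intervals are adjusted neither for that nor for the number of comparisons. The p4ha1b peak held 1.89 times the tags of the plod1a main peak (1.65 to 2.16). The plod1a main peak held 3.41 times the tags of the adjacent peak (2.72 to 4.31) and 4.67 times those of the distant peak (3.62 to 6.10). Between the adjacent and the distant peak the ratio was 1.37, with an interval of 1.003 to 1.88 whose lower bound was barely above equal counts. Summed over the 50 kb windows the genes stood closer, at 643 tags for p4ha1b and 514 for plod1a, a ratio of 1.25 (1.11 to 1.41), and the main peak carried 66.3% of the plod1a tags.

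The greater tag number at p4ha1b went with a longer peak. Its length was 1.90 times that of the plod1a main peak, so that per kb of peak the 2 main peaks were alike, with a ratio of 0.994 (0.870 to 1.14). Both values take the plod1a main peak as called, apart from the adjacent peak, and were not recomputed with these merged. Merging would lengthen the plod1a peak and lower its tags per kb, as the adjacent peak had 192 tags per kb. The likeness per kb is therefore shown only for the peaks as called. By fold enrichment, which the peak caller reads at the summit, the ratio was 1.45 in favour of p4ha1b. The flanking plod1a peaks remained lower per kb as well, at 192 tags per kb for the adjacent peak (156 to 233) and 139 for the distant one (109 to 175). The main peak had 1.89 times the tags per kb of the adjacent peak (1.51 to 2.38) and 2.60 times those of the distant peak (2.01 to 3.40).

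The main peaks also differed in shape. At p4ha1b 1489 bases of the peak lay on the lower-coordinate side of the summit and 295 on the other, so the longer side made up 83.4% of the peak. Only 33 of the 5177 vhl peaks (0.637%) were at least as lopsided, and the median over all was 57.3%. Among the 20 ChIP-qPCR regions p4ha1b had the most lopsided peak, and the other 18 regions ranged from 50% to 77.2%. At plod1a the division was 572 and 368 bases, or 60.8%, a value that 35.7% of the vhl peaks reached. The adjacent plod1a peak also lay on the longer, lower-coordinate side of its main peak. Merging it with the main peak would extend that side and narrow the difference in shape from p4ha1b, by an amount that was not computed.

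The study chose its ChIP-qPCR regions among highly significant vhl peaks that contain a hypoxia response element, so the high rank of the main peaks follows in part from that choice and is given as a description. Over all 5177 vhl peaks the median was 47 tags, a fold enrichment of 27.3, a score of 95.4, a length of 567 bp and 82.4 tags per kb. The p4ha1b peak shared the highest score, which 8 peaks reached, and ranked 2 by fold enrichment, 11 by tags, 17 by length and 82 by tags per kb. The plod1a main peak ranked 64 by score, 26 by fold enrichment, 79 by tags, 78 by tags per kb and 323 by length. For the peaks as called, rank by length thus separated the genes most, and rank by tags per kb least.

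Both main peaks had the highest fold enrichment on their chromosomes. On chromosome 17, with 202 vhl peaks, the p4ha1b peak was first by fold enrichment and by score and 5 by tags. On chromosome 8, with 197 vhl peaks, the plod1a peak was first by fold enrichment and 2 by score and by tags. The flanking plod1a peaks, which the study did not choose, were weaker than the main peaks. They were above the medians of the whole list in tags, fold enrichment, score and tags per kb, but below its median length. The adjacent peak ranked 717 by score, 855 by fold enrichment and 766 by tags, and the distant peak ranked 1469, 1522 and 1271 by the same measures. An FDR of 5% or less was met by all 4 peaks and by 77.1% of the vhl list.

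**Figure D2:**
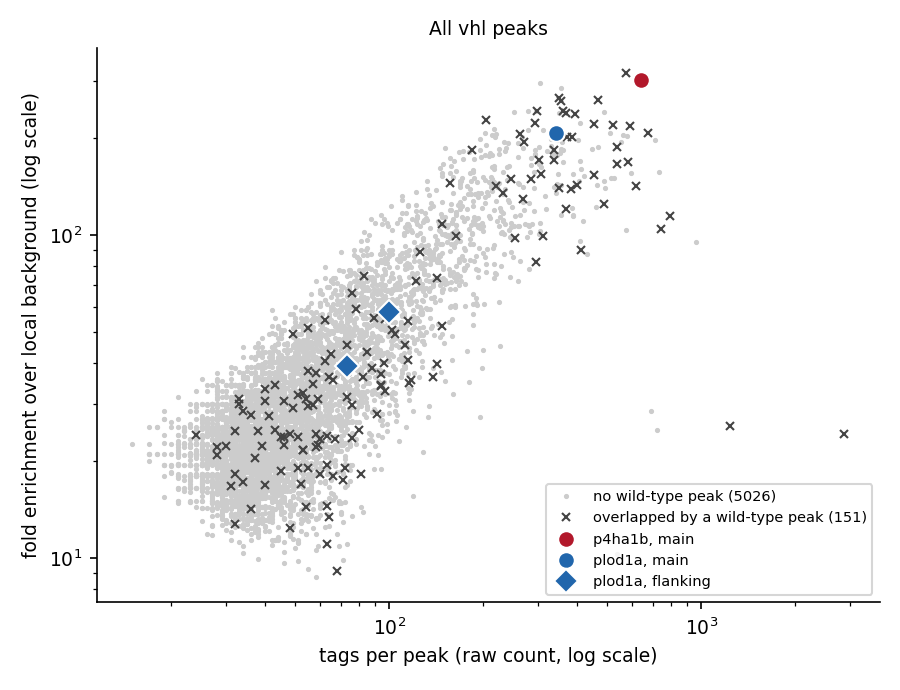
Fold enrichment over local background against tags per peak for all 5177 vhl peaks, both on log scales; grey points (5026) have no overlapping wild-type peak, crosses have one, and the p4ha1b and plod1a peaks are drawn large. The p4ha1b main peak (643 tags, fold 301) lies at the upper edge and the plod1a main peak (341 tags, fold 207) below it. The plod1a flanking peaks (100 and 73 tags) lie lower still, but above the list medians of 47 tags and fold 27.3.

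No wild-type peak overlapped any of the 4 peaks, and none lay within 50 kb of them. These facts were common to the vhl list, since 97.1% of its peaks had no overlapping wild-type peak and 86.9% had no wild-type peak within 50 kb. The nearest wild-type peaks to p4ha1b were 1043.22 kb to the higher side, with 6 tags, and 1518.215 kb to the lower side, with 7 tags. Near plod1a they were 72.75 kb to the higher side and 684.349 kb to the lower side, each with 6 tags.

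The absence of wild-type peaks was less common among peaks with at least as many tags as the main ones. Of the 11 vhl peaks with 643 tags or more, 5 were overlapped by a wild-type peak (45.5%, Wilson interval 21.3% to 72.0%), and the 6 wild-type peaks there held 10 to 153 tags with a median of 81.5. The 11, p4ha1b included, were chosen by a lower limit on tags alone, and p4ha1b held the fewest. Some of them, both overlapped and not, had a fold enrichment near the list median of 27.3, against 301 for p4ha1b. These low-fold peaks also lay a few kb from one another, whereas the Wilson interval treats each peak as a separate site. Of the 79 vhl peaks with 341 tags or more, 28 were overlapped (35.4%, 25.8% to 46.4%), and the 32 wild-type peaks there held 6 to 153 tags with a median of 12.5. Among the 5026 vhl peaks without a wild-type peak, p4ha1b was first by fold enrichment and 6 by tags, and the plod1a main peak was 13 by fold enrichment and 51 by tags.

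The wild-type ChIP library was the shallower one, with 7554444 tags kept against 16145214 in the vhl ChIP library, a ratio of 2.14. Of the mapped tags, 45.0% and 48.3% were kept, and in the input libraries 46.9% (wild-type) and 62.1% (vhl). Scaled to the wild-type depth, the p4ha1b peak would hold 301 tags (278 to 325) and the plod1a main peak 160 (143 to 177). The adjacent peak would hold 46.8 tags (38.1 to 56.9) and the distant peak 34.2 (26.8 to 42.9). For comparison, the wild-type peaks had a median of 7 tags and a range of 6 to 265, and 1244 of the 1280 (97.2%) held fewer tags than even the distant plod1a peak at this depth. Only 1 wild-type peak held as many tags as the scaled plod1a main peak, and 0 held as many as the scaled p4ha1b peak. As totals per peak, all 4 scaled counts were thus above those of most wild-type peaks. These totals were not adjusted for length. The wild-type peaks had a median length of 99 bp, whereas the 4 vhl peaks were 521 to 1785 bp long. Per kb of peak the wild-type list had a median of 69.0 tags and a maximum of 642. The 4 vhl peaks had 139 to 362 tags per kb at the vhl depth, which was 2.14 times the wild-type depth. At the wild-type depth each would be lower by that ratio, so these values cannot be set directly against the wild-type median of 69.0. Scaled by the ratio, both main peaks and the adjacent peak would stay above that median. The distant plod1a peak would fall slightly below the median, although its counting interval would still span it. The number of wild-type tags at the 4 positions was not analysed here, since the lists give tags only where a peak was called. The modelled fragment length also differed between the genotypes, at 110 bp for vhl and 34 bp for wild-type, and its part in the difference was not tested.

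**Figure D3:**
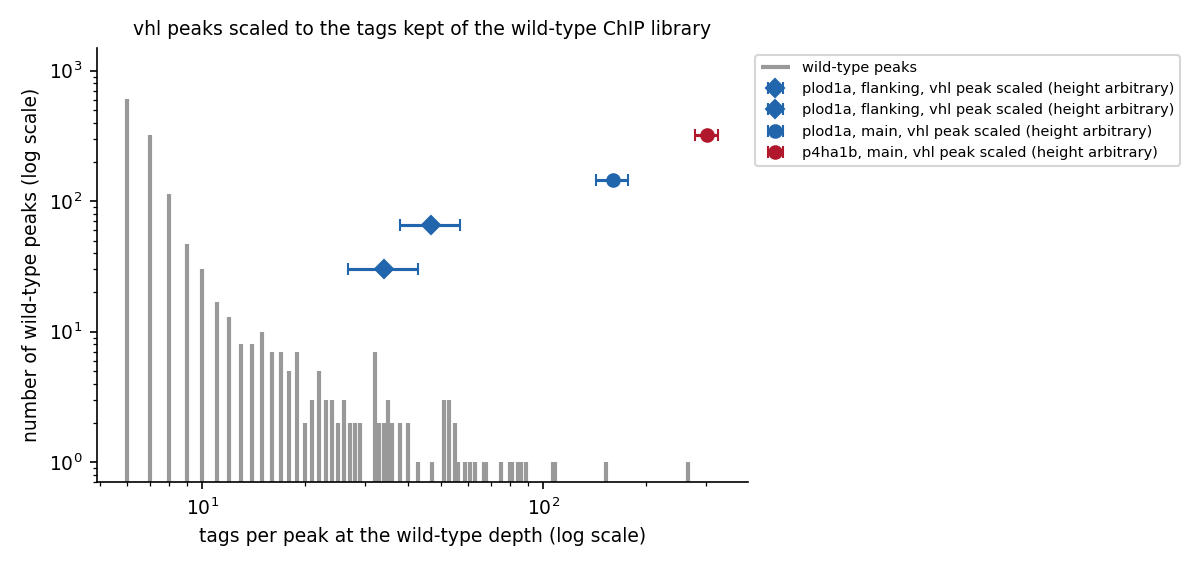
Number of wild-type peaks (grey bars, log scale) by tags per peak (log scale), with the 4 vhl peaks scaled to the tags kept of the wild-type ChIP library and their 95% counting intervals; the height of the coloured points is arbitrary. The scaled peaks, at 301, 160, 46.8 and 34.2 tags, lie beyond the 7 tags of the median wild-type peak. Counts are not adjusted for peak length.

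The surroundings of the 2 loci differed. At p4ha1b no other vhl peak lay within 50 kb, which was the case for 49.6% of all vhl peaks, and 27.9% of vhl peaks had their nearest summit at least as far away. The closest peak outside the window, 120.059 kb to the higher side, was weak, with 31 tags, a score of 54.9 and an FDR of 15.6%. To the lower side the next vhl peak was 1404.936 kb away and also held 31 tags.

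At plod1a the main peak had 2 other vhl peaks within 50 kb, as did 14.2% of vhl peaks, and 21.9% had 2 or more, up to 9. Close spacing such as that of the adjacent pair was uncommon. Only 114 vhl peaks (2.2%) had another summit within 826 bp, and 9 of the 5152 pairs of neighbouring vhl peaks (0.175%) were separated by 20 bp or less. Over the 81 pairs of neighbouring summits within 1 kb, the weaker peak had a median of 68.1% of the tags of the stronger one. The adjacent plod1a peak had 29.3% of the tags of the main peak, and 7 of the 81 pairs, this one included, were as unequal or more so. In 4 of the 81 pairs the stronger peak held 341 tags or more.

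The next vhl peak beyond the plod1a window was strong. It lay 72.485 kb to the higher side of the region, at chr8:50082452-50082983, and held 232 tags with a fold enrichment of 135, a score of 1133 and rank 132 by score, between the main and the adjacent plod1a peak in strength. Over its 532 bp it had 436 tags per kb, more than either main peak. The wild-type peak 72.75 kb away overlapped it, with 6 tags over 99 bp and an FDR of 53.3%. At the wild-type depth the vhl peak would hold 109 tags (95 to 123), 18.1 times the wild-type count (8.19 to 49.8). This ratio sets totals over 532 bp and 99 bp side by side, and its interval does not cover the difference in length. Per kb the wild-type peak had 60.6 tags, against 436 for the vhl peak at the vhl depth, which was 2.14 times the wild-type depth. Neither comparison adjusts for both length and depth. In each, the missing adjustment would narrow the difference. The pair of overlapping peaks was the nearest site to either region at which both genotypes had a call. It lay outside the window by which peaks were chosen. To the lower side the next vhl peak was 634.41 kb away and held 122 tags.

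Set beside the main peaks of the other 18 ChIP-qPCR regions, p4ha1b was among the strongest and plod1a among the weaker ones. The other 18 held 303 to 741 tags with a median of 477, at fold enrichments of 104 to 317 with a median of 168. In order of tags p4ha1b was 3 of 20 and plod1a 17, and in order of length they were also 3 and 17. By fold enrichment p4ha1b was 2, and plod1a was 6, tied with gigfy2. By score p4ha1b shared the top, 3100, with kdm5c and znf292b. Their tags differed, at 643, 731 and 573 in that order, so score did not order these peaks. With a score of 2963, gapdhs came next. The plod1a peak was 19 by score, below mxi1 (1832) and above jmjd6 (1313).

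Per kb of peak the order changed. The other 18 regions had 233 to 619 tags per kb with a median of 400, and plod1a at 13 and p4ha1b at 14 of 20 stood next to each other, both below that median. In the plot of the 20 regions, p4ha1b therefore lies high by tags and plod1a low, whereas per kb both lie side by side below the median of the others. These places are for the plod1a main peak as called, without the adjacent peak. By peaks within 50 kb the other 18 regions had 1 to 10 vhl peaks with a median of 2.5, and 330 to 3005 tags in all with a median of 630. A single vhl peak was seen at 7 of the 20 regions, p4ha1b among them, and 3 vhl peaks at 5 of the 20, plod1a among them. There was no overlapping wild-type peak at 15 of the 20 regions and none within 50 kb at 13, both genes included in each. At 5 of the 20, p4ha1b among them, 1 vhl peak and 0 wild-type peaks were found within 50 kb.

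**Figure D4:**
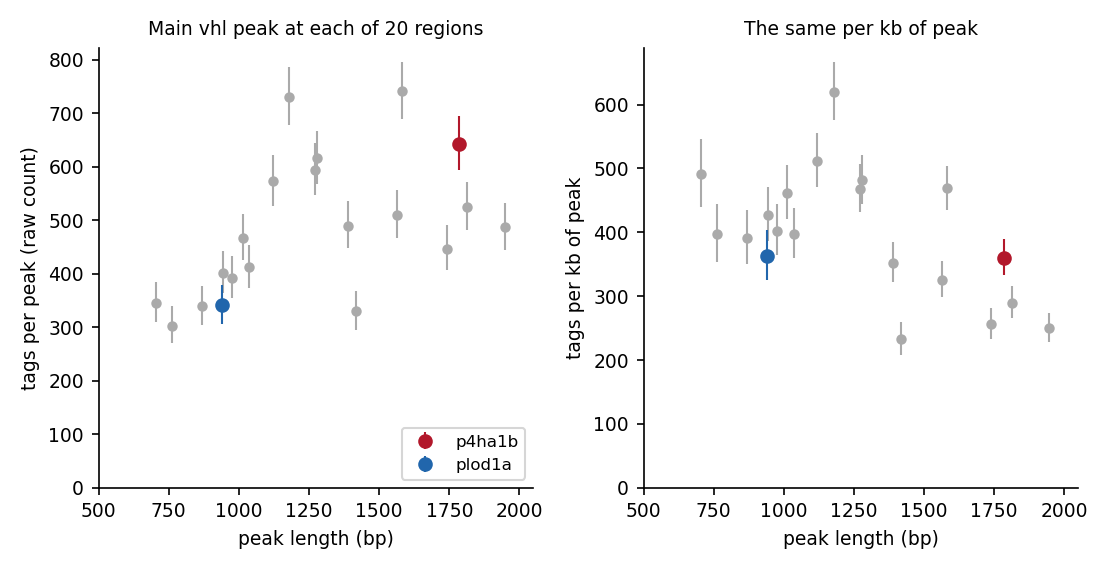
Tags per peak (left) and tags per kb of peak (right) against peak length in bp for the main vhl peak at each of the 20 ChIP-qPCR regions, with 95% Poisson intervals; p4ha1b is red, plod1a blue and the other 18 grey. The red point is high on the left (643 tags) and level with the blue point on the right (360 and 362 tags per kb). The blue point is the plod1a main peak as called, without the adjacent peak.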

How the data were processed

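Hif-1α ChIP and input DNA were sequenced as 35 bp single reads, aligned to Zv9 (danRer7) with CASAVA 1.8.2 and called per genotype against input with MACS 1.4.2 at a p-value of 1e-05, as given in the study's methods and the submitters' processing notes. The deposited lists hold, for each peak, the authors' tag count (raw, not scaled between genotypes), a score, fold enrichment as a ratio to local background, and FDR as a percent. Duplicate tags had been removed before calling. Depths were read from the file headers.

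Peaks within 50 kb of each region were taken, with an overlap of at least 1 bp counted as shared. Tag counts carry exact Poisson intervals, tag ratios intervals from the exact (Clopper-Pearson) binomial interval of the 2 counts, and shares Wilson intervals. Tags per kb divide by peak length, and tags at the wild-type depth multiply by the ratio of tags kept. With 1 library per group no test was run. The calculations were tested on simulated data. Positions of regions and primer sequences came from the study's primer list. Both genes matched 1 RefSeq entry each. The text names every peak within 50 kb, the nearest beyond it on each side, and the regions next in score. The members and lists were chosen with earlier results of these data known. Intervals were computed with scipy 1.17.1 and numpy 2.4.6 under Python 3.11.15, tables with pandas 2.3.3 and plots with matplotlib 3.10.9.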

Additional observations from a re-analysis of the deposited data

How the results depend on the processing

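Of 35 alternative values for 10 results, 25 stayed within the limits set for them and 10 moved. The limit was a largest allowed ratio to the main value for counts and ranks, and the interval of the main value for the rest. The 25 are therefore not all unchanged. They include vhl peak counts at plod1a of 4 with a 100 kb window and 2 with peaks up to 50 bp apart merged, against 3. With a 100 kb window, 1 wild-type peak was near plod1a. The p4ha1b peak shared rank 1 by score, in a tie of 8 peaks, but ranked 2 by fold enrichment, 11 by tags and 82 by tags per kb. The plod1a main peak ranked 64 by score and 26 by fold enrichment. The tag ratio of the main peaks, 1.89, became 0.994 per kb, 1.45 by fold enrichment and 1.46 when peaks up to 50 bp apart were merged, an alternative chosen after seeing the data. Length, tags per kb and shape were not recomputed for the merged plod1a peak, but the direction of change follows from the peaks as called. The adjacent peak had 192 tags per kb against 362 for the main peak, and lay on its longer side. Merging would thus lengthen the plod1a peak and lower its tags per kb. With the main summit kept, it would also make the peak more lopsided. The share of vhl peaks with no wild-type peak nearby, 86.9%, became 91.4% with a 25 kb window and 78.9% with 100 kb. Scaling by mapped instead of kept tags gave 323 and 171 tags at the wild-type depth for p4ha1b and plod1a. A count of RCGTG cores in the promoters was not run. No paired analysis was possible because there was 1 library of each kind. Depth limits what the wild-type list can show: a position with no peak may still hold wild-type tags.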
